A study of Homo sapiens with 15 samples.

Results

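The transcripts of 10 receptors through which blood cells sense cytokines and growth factors were followed in acute myeloid leukemia (AML) cells after knockdown of RNF5, a ubiquitin ligase anchored in the endoplasmic reticulum membrane. The genes were FLT3, KIT, CSF1R, CSF2RA, CSF2RB, CSF3R, IL3RA, IL6R, IL10RA and IFNGR1, taken by symbol from the 57820 gene identifiers of the series, 14906 of which were above 0 in any library. The symbols matched 12 identifiers, because CSF2RA and IL3RA lie in the pseudoautosomal region and are annotated with a second, near-identical copy each. Both second copies were listed at 0 in every library, so the values below are those of the copies on chromosome X, and how reads were shared between copies is uncertain. RNA-seq was run on human AML cells of the lines U937, HL-60 and MOLM-13, which carried either pLKO, the empty vector, or a short hairpin RNA directed at RNF5 (shRNF5). There were 3 pLKO and 2 shRNF5 libraries of MOLM-13, 2 of each of U937 and 3 of each of HL-60, 15 in all. Each line stands for the cells of 1 patient kept in culture. The text used here does not name the hairpin that was sequenced. The sources differ on whether RNA was taken 5 or 7 days after knockdown. MOLM-13 and U937 were grown in RPMI and HL-60 in IMDM, so line and medium cannot be told apart where HL-60 is compared with the other lines. Nothing in the labels says whether replicates were separate transductions, so the p-values measure only the spread between these libraries.

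The receptors belong to families that work in different ways. FLT3, KIT and CSF1R are receptor tyrosine kinases, which pair when their ligand binds and phosphorylate themselves, and they are known for carrying growth and survival signals in stem, progenitor and monocytic cells. The other receptors have no kinase of their own and lend the signal to JAK kinases and STAT transcription factors. CSF2RA and IL3RA are the ligand-binding α chains for GM-CSF and IL-3, which both signal through the shared β chain CSF2RB, whereas CSF3R binds G-CSF as a pair of identical chains. IL6R binds IL-6 and hands it to the shared signal chain gp130, and IL10RA and IFNGR1 are the ligand-binding chains for IL-10 and interferon-γ.

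The values were normalized read counts, which the authors scaled within each line and rounded to whole numbers. The spacing of these rounded values puts the reads counted per library between 9700000 and 63800000. The 2 MOLM-13 shRNF5 libraries held 63800000 and 24400000 reads, and the pLKO libraries of the line 9700000 to 15300000. RNF5 itself fell in each line, without overlap of the constructs, and the smallest of the 3 falls was the HL-60 one (log2 fold change -3.25, limma adjusted p = 0.00125). Of 16 myeloid marker genes, 14 were above 0 in each line. CD68 was listed at 0 in all libraries and CD14 in U937 and HL-60. T cell markers, globins and collagens other than COL1A1 were listed at 0 in all libraries, and summed lymphoid markers stayed at or below 50.2 RPM (values scaled to the sum of a library).

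In the pLKO libraries the lines differed most in FLT3, KIT, CSF1R and IL3RA. The lines were normalized separately, so these levels are given as RPM, each library's values scaled to one common sum, and without a test. FLT3 stood at 324 ± 63.5 RPM (SD, n = 3) in MOLM-13, 5.47 ± 0.587 (SD, n = 2) in U937 and 34.2 ± 8.9 (SD, n = 3) in HL-60. The libraries of the 3 lines did not overlap, and MOLM-13 lay 59.24-fold above U937. KIT, the receptor for stem cell factor, showed another order, with 63.6 ± 14.2 RPM (SD, n = 3) in HL-60 and 1.70 ± 1.30 (SD, n = 3) in MOLM-13. U937 had 0.682 ± 0.536 (SD, n = 2) RPM of KIT, and its libraries overlapped those of MOLM-13. IL3RA was high in MOLM-13, at 65.3 ± 10.3 RPM (SD, n = 3), and 38.78-fold lower in U937, at 1.68 ± 0.967 (SD, n = 2). In the HL-60 pLKO libraries IL3RA was at 0.313, 0.732 and 0 RPM, below each U937 library. CSF1R, the receptor for M-CSF, was at 11.6 ± 5.31 RPM (SD, n = 3) in MOLM-13 and 1.90 ± 1.18 (SD, n = 2) in U937, and it was listed at 0 in all 6 HL-60 libraries.

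The remaining receptors varied less between lines. CSF2RB was highest in HL-60, at 52.4 ± 6.93 RPM (SD, n = 3) against 14.9 ± 4.06 (SD, n = 3) in MOLM-13 and 20.3 ± 1.29 (SD, n = 2) in U937. Its partner chain CSF2RA ran the other way, at 38.7 ± 4.99 (SD, n = 3) in MOLM-13, 29.7 ± 13.2 (SD, n = 2) in U937 and 6.68 ± 2.07 (SD, n = 3) in HL-60. For CSF2RA the MOLM-13 and U937 libraries overlapped and the HL-60 libraries lay below both. IL10RA was likewise lowest in HL-60, at 3.64 ± 0.259 RPM (SD, n = 3), with 12.7 ± 5.16 (SD, n = 3) in MOLM-13 and between 15.2 and 24.9 in the U937 libraries. CSF3R and IFNGR1 overlapped between MOLM-13 and U937 and were 1.75-fold and 1.78-fold lower in HL-60 than in MOLM-13. IL6R lay within 1.45-fold in all 3 lines, from 222 ± 20.4 RPM (SD, n = 3) in HL-60 to 321 ± 34.3 (SD, n = 3) in MOLM-13, and overlapped between U937 and each other line.

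Levels of different receptors can be set side by side only per length, here as RPM per kilobase of the reference transcript. The library kit is a 3′ mRNA kit by the labels and a directional poly(A) kit by the methods, and a length scale is meaningful only with the latter. On this scale FLT3 led in MOLM-13 pLKO cells, with a mean level of 84.7, followed by IL6R at 55.7, IL3RA at 42.4 and IFNGR1 at 41.8. FLT3 libraries lay above all IL6R libraries and these above all IL3RA libraries, while IL3RA and IFNGR1 overlapped. In U937 the leading levels per length were IL6R at 45.5, IFNGR1 at 44.7 and CSF3R at 33.8, whose libraries overlapped with each other. In HL-60 IL6R came first at 38.4, then IFNGR1 at 23.5, CSF3R at 16.9, KIT at 12.4 and CSF2RB at 10.8, of which KIT and CSF2RB overlapped. KIT was lowest per length in MOLM-13 and in U937, at 0.331 and 0.133, and IL3RA was lowest of the listed receptors in HL-60, at 0.226.

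**Figure D1:**
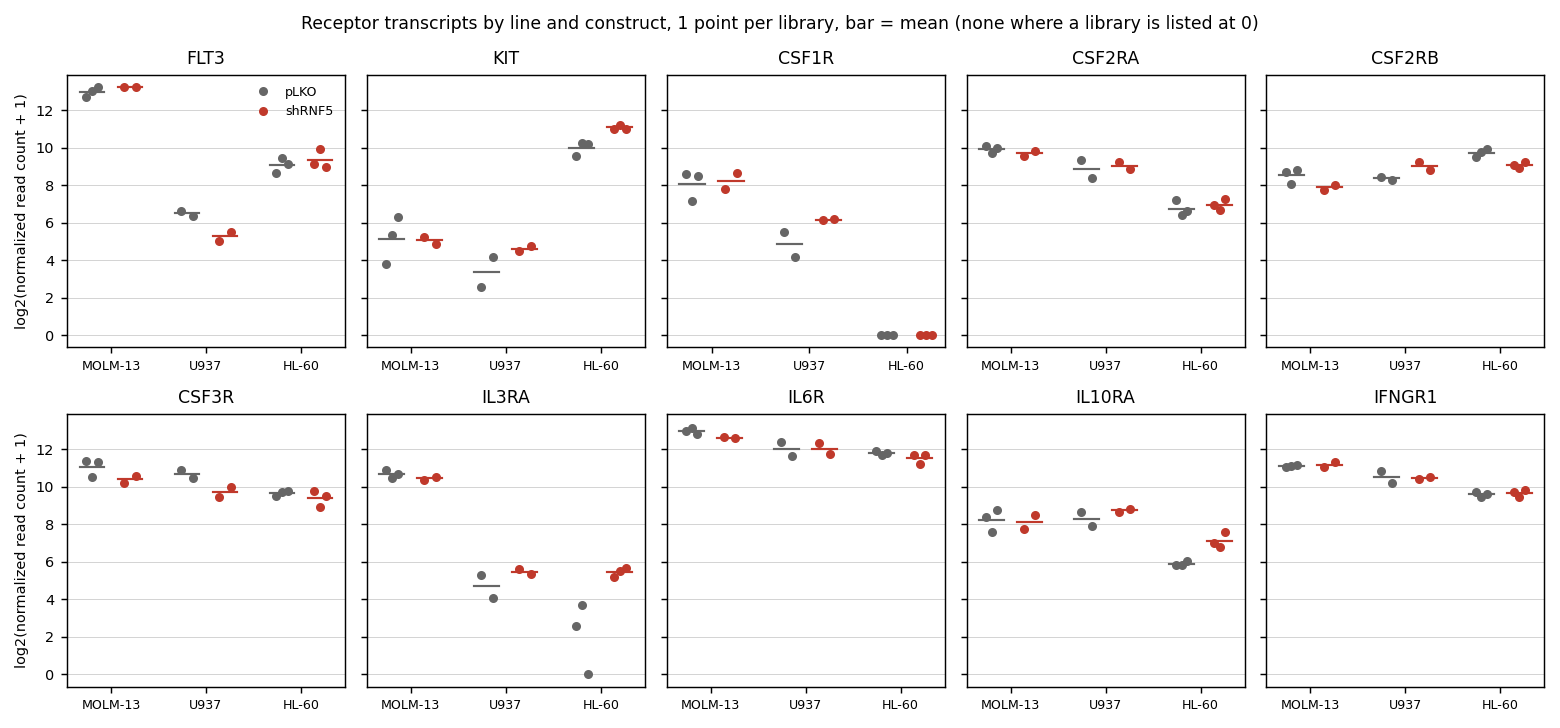
Normalized read counts of the 10 receptors on a log2(value + 1) scale, with 1 point per library, grouped by line and construct (gray, pLKO; red, shRNF5), and bars for the mean of the log2 values, none where a library is listed at 0. The 6 HL-60 libraries are all at 0 for CSF1R, and for KIT the HL-60 shRNF5 libraries lie above all others.

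RNF5 knockdown was then compared with pLKO within each line, by limma on log2(value + 1), over all genes not at 0 throughout the line. Calls needed a log2 fold change beyond 0.4 in either direction and an adjusted p (Benjamini-Hochberg) under 0.1. Fold changes are differences of mean log2(value + 1). The added 1 pulls those of low genes toward 0, while a single library at or near 0 can push them the other way. For IL3RA in HL-60 the group means of 5.7 and 43.3 lay less than the fitted 10.27-fold apart. In HL-60, 4 of the 9 receptors tested were called, where 25.9% of the 12570 genes tested were called. IL3RA, KIT and IL10RA rose and CSF2RB fell. Over all HL-60 genes 13.6% were called higher and 12.3% lower. In U937, 1 of 10 receptors was called, CSF3R, which fell, where 15.7% of 13165 genes were called, 6.92% higher and 8.74% lower. In MOLM-13, 0 of 10 receptors were called by limma, where 2.04% of 13026 genes were called, 1.03% higher and 1.01% lower. At an unadjusted p under 0.05 there were 3 receptors for MOLM-13 (16.99% of all genes tested), 3 for U937 (27.1%) and 4 for HL-60 (35.0%). By median, the receptors' log2 fold changes were -0.16 for MOLM-13 (0.007 over all genes tested), 0.31 for U937 (0.004 over all genes) and 0.23 for HL-60 (0.002 over all genes). With bulk RNA, fewer cells carrying a transcript and less of it per cell cannot be told apart.

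**Figure D2:**
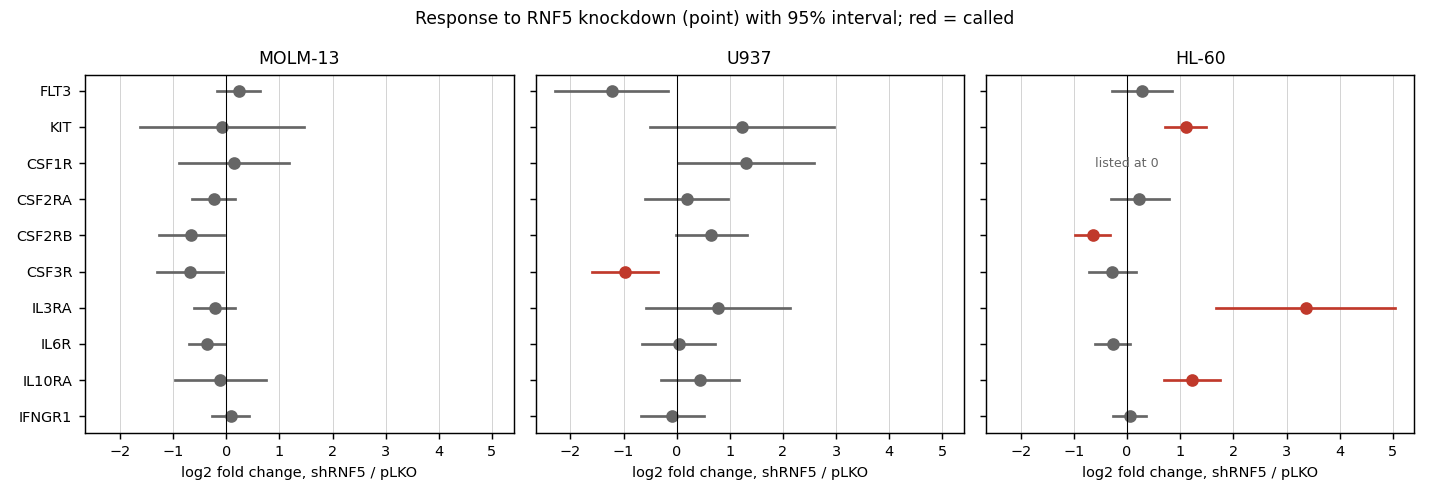
Log2 fold change of each receptor in shRNF5 against pLKO libraries, with the 95% interval from limma, in MOLM-13, U937 and HL-60; red marks receptors called changed. The 4 called in HL-60 are KIT, CSF2RB, IL3RA and IL10RA, CSF3R is called in U937, and CSF1R was listed at 0 in HL-60.

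IL3RA, the IL-3 receptor α chain also known as CD123, showed the largest fold change of any receptor in any line. In GRCh37, the build of all gene positions given here, it spans 1455509 to 1501582 of chromosome X, on the forward strand, with 12 exons in its reference transcript. The HL-60 pLKO libraries had normalized read counts of 5, 12 and 0, and the shRNF5 libraries 35, 45 and 50. All shRNF5 values lay above all pLKO values, and by the depth estimate they rested on 30, 37 and 63 reads against 6, 11 and 0. The log2 fold change was 3.36 ± 0.76 (SE), with a limma adjusted p of 0.0136. Because the controls hold so few reads, its size depended on single libraries, from 2.31 to 4.16 when each library was left out, while the call was kept in all 6 such fits. Even with shRNF5 the transcript stayed low in HL-60, at 2.63 ± 0.43 RPM (SD, n = 3), below the 56.4 ± 5.78 (SD, n = 2) of MOLM-13 shRNF5 cells. In U937 the IL3RA values were 39 and 16 with pLKO and 48 and 40 with shRNF5, apart but not called, with a log2 fold change of 0.78 (95% interval -0.57 to 2.13, limma adjusted p = 0.433). In MOLM-13 they were 1905, 1401 and 1668 with pLKO and 1327 and 1502 with shRNF5, which overlapped.

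KIT lies on chromosome 4 from 55523434 to 55606949 on the forward strand. In HL-60 its values were 756, 1194 and 1151 with pLKO and 2054, 2395 and 2065 with shRNF5, with no overlap. This was a 2.14-fold rise, a log2 fold change of 1.1 ± 0.17 (SE), with a limma adjusted p of 0.00338. The call was kept in all 6 fits that left out a library and lost in one fit over all 15 libraries, where the adjusted p was 0.139. KIT was low in the other lines, where 3 counted reads correspond to between 1.19 and 7.69 normalized read counts. In U937 it was at 5 and 17 with pLKO and 21 and 26 with shRNF5, a log2 fold change of 1.23 with a 95% interval from -0.50 to 2.96. In MOLM-13 the pLKO values of 13, 39 and 77 enclosed the shRNF5 values of 37 and 28.

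IL10RA lies on chromosome 11 from 117857085 to 117873752 on the forward strand. It had values of 56, 57 and 64 in the HL-60 pLKO libraries and 127, 111 and 191 in the shRNF5 libraries, again with no overlap. The rise was 2.34-fold, a log2 fold change of 1.23 ± 0.24 (SE), with a limma adjusted p of 0.00735. The signal chain with which IL10RA pairs, IL10RB, rose too, from 357, 490 and 419 to 616, 499 and 794, with a log2 fold change of 0.58 (limma adjusted p = 0.0528). In U937 the IL10RA values of 411 and 448 with shRNF5 lay just above the 410 and 243 of pLKO, with a log2 fold change of 0.44 (95% interval -0.29 to 1.17). The MOLM-13 libraries overlapped, between 189 and 438 with pLKO and at 217 and 367 with shRNF5.

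CSF2RB, on chromosome 22 from 37309670 to 37336481 on the forward strand, was the receptor that fell in HL-60. Its values were 726, 863 and 963 with pLKO and 537, 477 and 611 with shRNF5. All shRNF5 libraries lay below all pLKO libraries, with a log2 fold change of -0.65 ± 0.15 (SE) and a limma adjusted p of 0.0154. In MOLM-13 the values were 422, 266 and 446 with pLKO and 213 and 256 with shRNF5, also apart, but the log2 fold change of -0.66 ± 0.26 (SE) was not called (limma adjusted p = 0.265). It was called with a replicate block by the numbers in the file names (log2 fold change -0.56, limma adjusted p = 0.0243), and not with a block by the labels' numbers. The file-name block leaves pLKO replicate 1 without a partner. The fit without this library gave the same log2 fold change of -0.56 and no call (limma adjusted p = 0.276). In U937 the order was the opposite, 349 and 310 with pLKO and 608 and 439 with shRNF5, with a log2 fold change of 0.65 ± 0.30 (SE) that was not called (limma adjusted p = 0.194). The α chain for GM-CSF, CSF2RA, on chromosome X from 1387693 to 1429274, overlapped between constructs in every line, with log2 fold changes of -0.24, 0.19 and 0.23 in MOLM-13, U937 and HL-60. Thus in HL-60 the shared β chain fell, the IL-3 α chain rose, and the GM-CSF α chain was not called, with a 95% interval from -0.31 to 0.78.

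**Figure D3:**
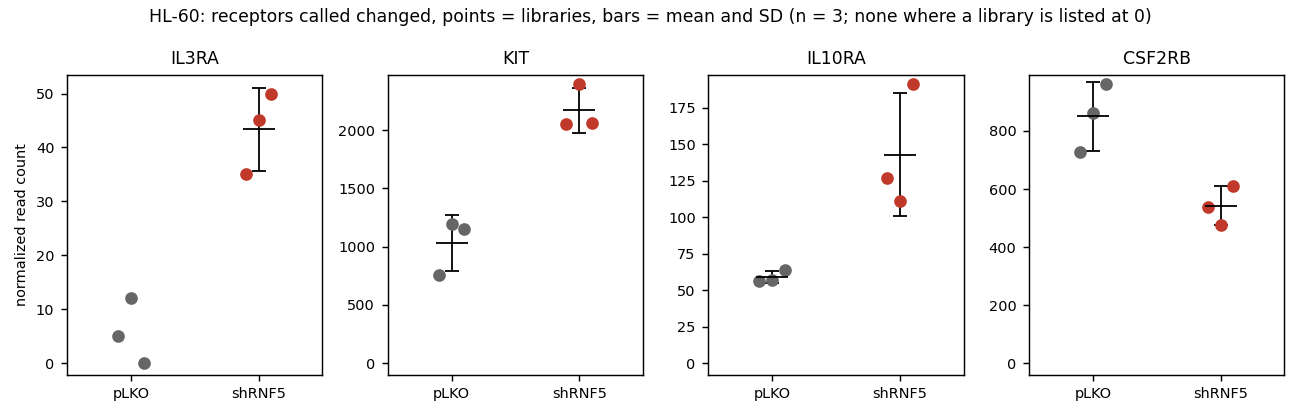
Normalized read counts of IL3RA, KIT, IL10RA and CSF2RB in the 3 pLKO (gray) and 3 shRNF5 (red) libraries of HL-60 on linear axes that differ in range, with bars for mean and SD, none for IL3RA with pLKO, where a library is listed at 0. For each gene the 2 groups of points do not overlap.

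Promoter sequences are shown for the 3 receptors that rose in HL-60, as the DNA around 1 listed start of each. They came from the RefSeq table of build GRCh38.p14, with 250 bases before and 50 after the start listed there for a gene. Of the 10 receptors 9 matched, without CSF2RB. Whether the listed starts are those of the GRCh37 positions given here was not tested, so a window may lie inside its gene. Letter patterns of 5 blood cell factors, picked after the results were known, were searched on both strands. The pattern for STAT factors was TTCNNNGAA. For C/EBP it was TTGCNNAA. For PU.1 the letters GAGGAA were taken. GATA factors were given AGATAA. RUNX1 was searched as TGTGGT. Capitals mark every match, and no matches overlap in the windows shown.
IL3RA, chrX:1336535-1336834, forward strand: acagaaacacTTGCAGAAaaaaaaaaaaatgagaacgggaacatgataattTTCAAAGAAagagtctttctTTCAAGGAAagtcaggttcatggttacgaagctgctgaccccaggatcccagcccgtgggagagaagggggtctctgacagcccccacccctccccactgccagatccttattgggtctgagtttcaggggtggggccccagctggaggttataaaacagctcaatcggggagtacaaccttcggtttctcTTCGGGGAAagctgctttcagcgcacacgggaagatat
IL10RA, chr11:117989695-117989994, forward strand: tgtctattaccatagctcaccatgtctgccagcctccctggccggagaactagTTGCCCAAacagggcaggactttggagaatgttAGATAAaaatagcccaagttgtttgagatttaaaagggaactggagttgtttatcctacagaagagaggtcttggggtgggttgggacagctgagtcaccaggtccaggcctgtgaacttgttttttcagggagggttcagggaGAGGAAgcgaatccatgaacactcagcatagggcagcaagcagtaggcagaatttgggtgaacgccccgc
KIT, chr4:54657707-54658006, forward strand: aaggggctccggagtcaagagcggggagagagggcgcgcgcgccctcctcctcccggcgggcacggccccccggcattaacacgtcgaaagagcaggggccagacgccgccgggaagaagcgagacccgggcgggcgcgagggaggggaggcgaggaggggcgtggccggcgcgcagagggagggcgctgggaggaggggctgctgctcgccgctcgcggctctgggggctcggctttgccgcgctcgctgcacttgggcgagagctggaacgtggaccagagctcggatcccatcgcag
The IL3RA window held 3 matches to the STAT pattern, which is in 7.66% of 35116 promoters, and 1 to the C/EBP pattern, which is in 10.5%. The IL10RA window held 1 match each to PU.1, C/EBP and GATA, patterns found in 27.9%, 10.5% and 10.3% of promoters. The KIT window held no match and was rich in G and C, at 74.3% beside a median of 58.7% over all promoters. Of the receptors that were not called in HL-60, FLT3, CSF2RA and IL6R held PU.1 matches and CSF3R a RUNX1 and a C/EBP match. A match is only a run of letters, and no binding was measured.

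CSF3R, the receptor for G-CSF, was the receptor called in U937. It lies on chromosome 1 from 36931644 to 36948879 on the reverse strand. Its values there were 1879 and 1433 with pLKO and 698 and 1002 with shRNF5, a 1.96-fold fall without overlap, with a log2 fold change of -0.97 ± 0.28 (SE) and a limma adjusted p of 0.0614. The call was lost when pLKO replicate 2, shRNF5 replicate 1 or shRNF5 replicate 3 was left out, with adjusted p up to 0.648, and without the mean-variance trend, at 0.164. In MOLM-13 the values were 2682, 1457 and 2613 with pLKO and 1203 and 1513 with shRNF5, which overlapped, and the log2 fold change of -0.68 ± 0.27 (SE) was not called (limma adjusted p = 0.262). With the replicate block by file-name numbers it was called (-0.53, limma adjusted p = 0.00766), and with the block by the labels' numbers it was not. The fit without pLKO replicate 1, which has no partner in the file-name block, gave the same -0.53 and no call (limma adjusted p = 0.302). In HL-60 the groups overlapped, between 742 and 882 with pLKO and between 482 and 875 with shRNF5. The log2 fold change there was -0.28, with a 95% interval from -0.71 to 0.16.

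FLT3 and CSF1R, the other tyrosine kinase receptors, were not called by limma in any line where they were tested. FLT3, on chromosome 13 from 28577411 to 28674729 on the reverse strand, was at 97 and 81 with pLKO and at 31 and 45 with shRNF5 in U937. These groups were apart, and the log2 fold change was -1.22 ± 0.48 (SE) with a limma adjusted p of 0.135. In MOLM-13, where FLT3 was abundant, values of 6630, 8431 and 9627 with pLKO overlapped 9453 and 9649 with shRNF5 (log2 fold change 0.23, 95% interval -0.17 to 0.63). The HL-60 values of 406, 708 and 552 overlapped 566, 987 and 506 (log2 fold change 0.28, 95% interval -0.29 to 0.85). CSF1R, on chromosome 5 from 149432854 to 149492935 on the reverse strand, was at 45 and 17 with pLKO and 69 and 71 with shRNF5 in U937. Its log2 fold change of 1.30 ± 0.58 (SE) there had a limma adjusted p of 0.179, and the MOLM-13 libraries overlapped.

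IFNGR1 had fold changes close to 0 in each line. The gene, on chromosome 6 from 137518620 to 137540586 on the reverse strand, overlapped between constructs in every line, with log2 fold changes of 0.08, -0.08 and 0.05 in MOLM-13, U937 and HL-60. Its 95% intervals stayed within -0.26 to 0.42 in MOLM-13 and -0.26 to 0.36 in HL-60, and were wider in U937, at -0.67 to 0.52. IL6R, on chromosome 1 from 154377669 to 154441926 on the forward strand, was lower with shRNF5 in MOLM-13, at 6461 and 6180 against 8182, 9185 and 7145. The groups did not overlap there, but the log2 fold change of -0.36 ± 0.15 (SE) was not called (limma adjusted p = 0.269). In U937 and HL-60 the IL6R libraries overlapped, with log2 fold changes of 0.04 and -0.27. IL6R overlaps IL6R-AS1 on the opposite strand, and reads of the pair can be told apart only with stranded counting.

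Libraries of the constructs were apart for 2 of 10 receptors in MOLM-13 (CSF2RB and IL6R), 7 of 10 in U937 and 4 of 9 in HL-60. The shares over all genes tested were 38.7% (MOLM-13), 59.2% (U937) and 38.5% (HL-60). In U937 the 7 were CSF2RB, IL10RA, KIT, CSF1R and IL3RA, higher with shRNF5, and CSF3R and FLT3, lower.

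Whether the response of a receptor differed between lines was tested by a term for line and construct in one limma fit over 15 libraries, which covered the 11072 genes detected in each line, 9 receptors among them. At an adjusted p under 0.1, 2 receptors differed between MOLM-13 and U937, where 15.4% of genes did, 1 between MOLM-13 and HL-60, where 8.82% did, and 3 between U937 and HL-60, where 37.2% did. For CSF2RB the log2 fold change in U937 exceeded that in HL-60 by 1.30 (95% interval 0.60 to 1.99, limma adjusted p = 0.00992). The MOLM-13 minus U937 difference of CSF2RB was -1.31 (limma adjusted p = 0.0347), whereas MOLM-13 and HL-60 differed by -0.01, with a 95% interval from -0.67 to 0.65. FLT3 responded lower in U937 than in the other lines, with a difference of 1.46 for MOLM-13 minus U937 (limma adjusted p = 0.0443) and -1.50 for U937 minus HL-60 (limma adjusted p = 0.0121). Both comparisons of CSF2RB and of FLT3 use the same U937 libraries. The fit takes a shared spread per gene for all lines, although the spread within lines was unlike. In MOLM-13, U937 and HL-60 the SE fitted per line was 0.17, 0.48 and 0.26 for FLT3. For KIT it was 0.67, 0.78 and 0.17. The fall of FLT3 in U937 had a limma adjusted p of 0.135 in the fit of that line and 0.00924 in the fit over 15 libraries.

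The IL3RA response was higher in HL-60 than in the other lines, with a difference of -3.58 for MOLM-13 minus HL-60 (limma adjusted p = 0.0459) and -2.58 for U937 minus HL-60 (limma adjusted p = 0.0598). For the other receptors called in a line the differences were not called. The IL10RA response was lower in MOLM-13 than in HL-60 by -1.33 (95% interval -2.31 to -0.35, limma adjusted p = 0.11), and for U937 minus HL-60 the difference was -0.78 (limma adjusted p = 0.24). KIT gave -1.18 for MOLM-13 minus HL-60 (95% interval -2.71 to 0.35) and 0.13 for U937 minus HL-60 (95% interval -1.48 to 1.74). CSF3R gave 0.29 for MOLM-13 minus U937 (95% interval -0.59 to 1.16) and -0.70 for U937 minus HL-60 (95% interval -1.53 to 0.14). The calls of KIT and IL10RA in HL-60 and of CSF3R in U937 are therefore not shown to be particular to those lines.

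**Figure D4:**
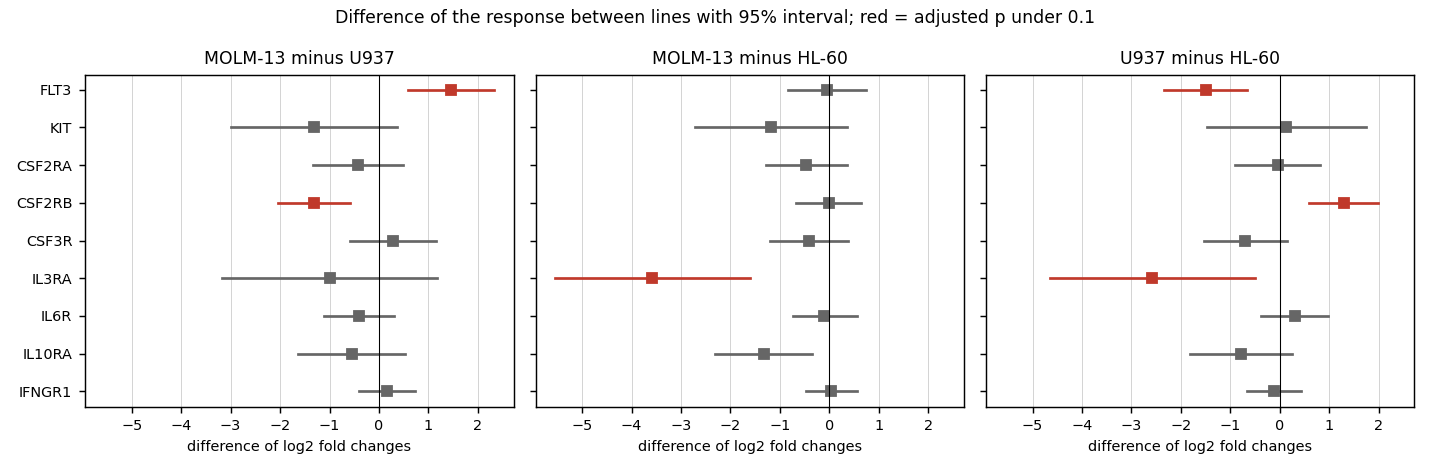
Difference between lines in the log2 fold change of each receptor, with the 95% interval from one limma fit over 15 libraries; red marks an adjusted p under 0.1. Red intervals belong to FLT3 and CSF2RB in both comparisons with U937 and to IL3RA in both comparisons with HL-60.

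The genes around the receptors were taken from lists of ligands, other receptor chains, JAK and STAT genes, adaptors and kinases, negative regulators and STAT5 targets. Of 11 ligand genes, 1 was above 0, KITLG, the ligand of KIT. It was not called in any line by limma, with log2 fold changes of -0.53, 0.27 and -0.43 in MOLM-13, U937 and HL-60. In MOLM-13 the only call in these lists was OSMR, the oncostatin M receptor chain, which rose from 11, 17 and 26 to 80 and 97 with a log2 fold change of 2.31 (limma adjusted p = 0.078). It was 1 of 19 other receptor chains tested, a share of 5.26% where 2.04% of all genes tested were called. This count stayed 1 without pLKO replicate 1. It became 0 without pLKO replicate 2 or 3, at an adjusted p under 0.05 and without the trend. The count was also 0 for genes with a mean of 50 or more and in one fit over all libraries, where OSMR was not tested. With the replicate block by file-name numbers it was 3. Fits without an shRNF5 library leave 1 in that group and are not counted here.

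In U937, 1 of 18 other receptor chains rose and 3 fell, a share of 22.2% where 15.7% of all genes tested were called. IL7R, the α chain for IL-7, listed at 0 and at 16 with pLKO, rose to 66 and 82 (limma adjusted p = 0.0516). LEPR, the leptin receptor, fell from 986 and 693 to 221 and 257 (limma adjusted p = 0.0179), and IL21R and IL11RA fell with log2 fold changes of -1.83 and -1.70. Of 10 JAK and STAT genes JAK3 rose by 0.87 on the log2 scale, and STAT2 and STAT5A fell, with log2 fold changes of -1.32 and -1.07. The share called among these genes was 30.0%. Of 36 adaptors and kinases, SYK rose and FES and MAP2K2 fell, a share of 8.33%, below the 15.7% of all genes tested. Of 34 negative regulators 9 rose and 1 fell, where 6.92% of all genes tested rose and 8.74% fell. SPRY4, a Sprouty inhibitor of receptor tyrosine kinase signaling, rose from 6 and 7 to 77 and 55 (log2 fold change 3.14, limma adjusted p = 0.0256). DUSP6, a phosphatase of ERK kinases, rose by 1.94 on the log2 scale, the adaptor SLA2 by 2.19, and CBLB, a ubiquitin ligase for activated receptors, fell with -1.57. None of 10 STAT5 targets was called in U937 by limma. The U937 calls over all genes numbered 0 without pLKO replicate 2 and without shRNF5 replicate 1, and 6 without shRNF5 replicate 3, so each list call there depends on those libraries.

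In HL-60, 2 of 18 other receptor chains rose, IL13RA1 and IL10RB, and 2 fell, IL23R and IL12RB2. This was a share of 22.2%, where 25.9% of all genes tested were called. These 4 calls became 2 without pLKO replicate 3 or shRNF5 replicate 3. IL13RA1, the IL-13 receptor α chain, went from 168, 134 and 208 to 473, 424 and 573, with a log2 fold change of 1.53 (limma adjusted p = 0.00134). STAT2 rose by 0.77 and JAK1 by 0.40 on the log2 scale, the only calls among 9 JAK and STAT genes tested there, also 22.2%. This count became 1 without pLKO replicate 1 or shRNF5 replicate 1. Of 36 adaptors and kinases 5 rose and 6 fell, a share of 30.6% where 25.9% of all genes tested were called, and the 11 calls became 7 without pLKO replicate 3. The tyrosine kinase FES rose by 1.15 and the docking protein GAB1 by 0.93 on the log2 scale. PIK3CG, PLCG1 and NRAS fell, with log2 fold changes of -1.31, -0.97 and -0.75.

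Among 33 negative regulators tested in HL-60, 6 rose and 7 fell, a share of 39.4% where 25.9% of all genes tested were called. SOCS1, an inhibitor of JAK kinases, rose from 7, 15 and 4 to 38, 52 and 80 (log2 fold change 2.68, limma adjusted p = 0.00473). CISH, a SOCS family member that STAT5 induces, rose by 0.91 on the log2 scale and SLA2 by 0.68. SPRY4 fell from 193, 249 and 184 to 31, 71 and 13 (log2 fold change -2.71, limma adjusted p = 0.00473), and SPRED1 and SPRY1, inhibitors of the same pathway, fell with -1.15 and -1.14. Of 8 STAT5 targets tested 2 rose, PIM1 (0.99) and CISH (0.91), and 3 fell, MYC (-1.28), CCND2 (-0.91) and BCL6 (-0.68), given as log2 fold changes. The share called among these targets was 62.5%. The test of the difference of SPRY4 between U937 and HL-60 is not reported here.

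**Figure D5:**
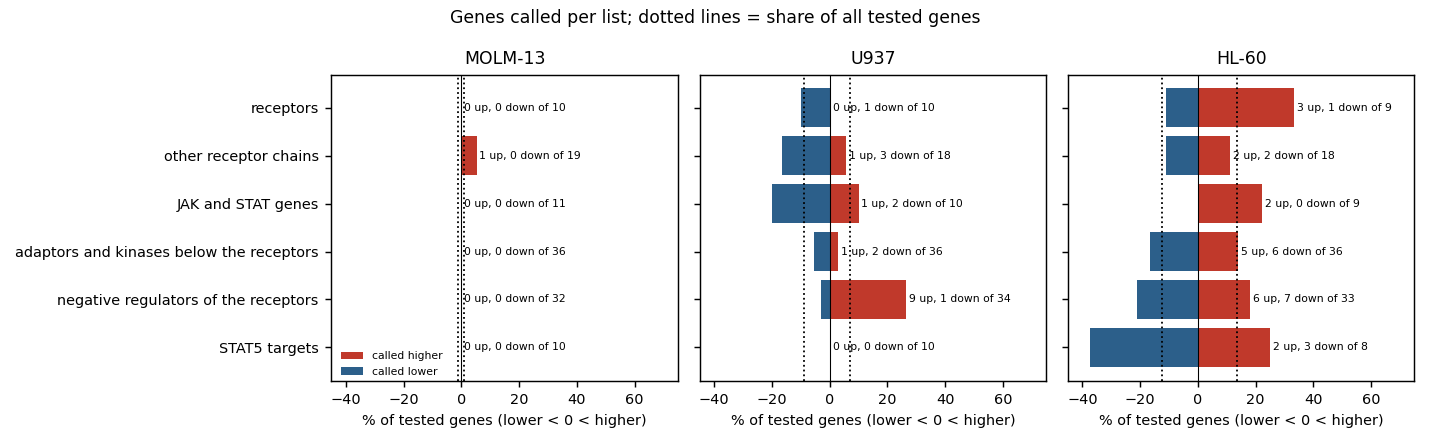
Share of tested genes in each list that were called higher (red, to the right) or lower (blue, to the left) with shRNF5 in MOLM-13, U937 and HL-60, with the counts printed beside the bars. Dotted lines give the share over all genes tested, 13.6% higher and 12.3% lower in HL-60; 3 of 9 receptors were higher in HL-60 and 9 of 34 negative regulators in U937.

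Myeloid markers moved beside the receptors. In HL-60, 8 of 14 tested rose and 2 fell, where 13.6% of all genes tested rose and 12.3% fell. The 10 calls became 6 without pLKO replicate 1 or shRNF5 replicate 3. The granule proteases CTSG (1.99) and ELANE (1.73) and lysozyme LYZ (1.25) had the largest rises by log2 fold change, and FCGR1A and CD33 fell. The summed myeloid markers ran from 8080 to 9840 RPM in the HL-60 pLKO libraries and from 11400 to 16600 in the shRNF5 libraries. In U937, 4 of 14 fell, AZU1, CTSG, ELANE and PRTN3, where 8.74% of all genes tested fell. The sum there went from between 4490 and 4700 to between 2350 and 2650. In MOLM-13 0 of 14 were called by limma, and the sums of 4670 to 6140 and 5030 to 6140 overlapped. The part of these markers in the receptor results was not tested. The lists of other cell types were nearly empty. Erythroid and megakaryocyte markers had 1 gene of 12 above 0 in MOLM-13 and in U937 and none in HL-60, and no lymphoid marker was called. Of 11 non-hematopoietic markers KRT8 was called, in HL-60, from 7, 8 and 6 to 18, 25 and 25.

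For the 3 most abundant receptors in RPM, the genes with the most similar profile were sought among 14905 others over the 15 libraries. The libraries of a line share their scaling and the level of that line, so the values are descriptions. FLT3 was most like MARVELD1 and SERPINH1, each with a Pearson r of 0.99. IFNGR1 was most like NDEL1 (0.967) and ARHGEF3 (0.966), and IL6R most like SNAPC1 (0.88) and TCP11L1 (0.863).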

How the data were processed

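RNA-seq libraries were grouped by the line, construct and replicate number in the sample labels. The authors used STAR for alignment to hg19, featureCounts for counting and SARTools with edgeR to normalize the counts of each line. What the authors deposited is a score, that is, these counts after division by a library factor and rounding, and genes below their filter are at 0. They are not raw counts, so no count model was run.

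Here limma 3.58.1 in R 4.3.3 was run per line on log2(value + 1), with eBayes and its trend option, on genes not at 0 throughout the line, and p-values were adjusted over all of them. The spacing between rounded values gave the number of reads counted, and values near 3 reads have little precision. The fits and this estimate were tested on simulated data. No libraries held identical values. Coordinates and transcript lengths came from GENCODE on GRCh37, the build of hg19.

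The receptors and the gene lists were chosen with earlier results of these data known. Named genes were RNF5, all 10 receptors, any ligand above 0, up to 3 rises and 3 falls called per list and line with the largest change, and the 2 genes most alike to each of the 3 most abundant receptors. One gene under this rule is not reported here. CD14, CD68, COL1A1 and PRTN3 were named after their values were seen. Alternatives were another threshold, a pseudocount of 0.5 or 10, genes with a mean of 50 or more, no trend, median-of-ratios scaling, a correction for transcript length, replicate blocks, the lines fitted together, and each library left out in turn.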

Additional observations from a re-analysis of the deposited data

Results flagged for a closer look

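Differences between lines in the response of a receptor passed the test of the difference itself for 3 receptors. The replicate block used for them follows the labels' numbers. With it, the U937 response rests on pLKO and shRNF5 replicate 3 alone, so a loss with the block comes with fewer U937 libraries. For CSF2RB the log2 fold change in MOLM-13 minus that in U937 was -1.31, and in U937 minus HL-60 it was 1.30. The first was lost without MOLM-13 shRNF5 replicate 1 or 2 or U937 shRNF5 replicate 1, with adjusted p up to 0.188, and both were lost with a replicate block, at 0.425 and 0.105. For FLT3 the differences were 1.46 for MOLM-13 minus U937 and -1.50 for U937 minus HL-60. The first was lost without either MOLM-13 shRNF5 library, U937 pLKO replicate 2 or U937 shRNF5 replicate 1, with adjusted p up to 0.217, and with the replicate block, at 0.314, and the second was kept in all 23 alternatives. For IL3RA they were -3.58 for MOLM-13 minus HL-60 and -2.58 for U937 minus HL-60. The first was lost without either MOLM-13 shRNF5 library or HL-60 shRNF5 replicate 3, with adjusted p up to 0.206. The second was lost at an adjusted p under 0.05 and without U937 pLKO replicate 2, either U937 shRNF5 library or HL-60 shRNF5 replicate 3, with adjusted p up to 0.215, and was 0.282 with the block.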

How the results depend on the processing

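The 4 receptor calls of HL-60 were the same number when any library was left out. KIT was lost in one fit over all libraries (limma adjusted p = 0.139), and IL3RA was not tested at a mean value of at least 50. The MOLM-13 replicate numbers in the file names differ from those in the labels. The correlation of same-numbered libraries was 0.53 and 0.281 by file name and -0.173 and -0.53 by label. With 2 shRNF5 libraries their deviations from the group mean are exact opposites, so 0.53 and -0.53 are the same correlation with its sign turned. By file name the libraries of each pair were each other's best match, and by label those of neither pair were. With opposite deviations, these values alone do not decide between the numberings. In MOLM-13 the receptor count rose from 0 to 2 (CSF2RB and CSF3R) with a replicate block by the file-name numbers. That block leaves pLKO replicate 1 without a partner, and without this library the count was 0. In U937 it went from 1 to 0 at an adjusted p under 0.05 and without the trend, to 3 (CSF2RB, CSF3R and FLT3) in one fit over all libraries, and lay between 0 and 1 with a library left out. Between lines, the 2 receptors of MOLM-13 and U937 became 0 with the replicate block and 0 to 3 with a library left out, the 1 of MOLM-13 and HL-60 became 0 at a mean value of at least 50, where IL3RA was not tested, and 0 to 2 with a library left out, and the 3 of U937 and HL-60 became 1 with the block. Same-numbered HL-60 libraries deviated from their group means with correlations of 0.505, 0.156 and -0.109, and only those numbered 1 were each other's best match, so the numbers were not taken to pair libraries, and with the block HL-60 kept a count of 4 receptors and had 3580 calls in all. No paired analysis was possible for U937 alone because its constructs share 1 replicate number. In the fits over all lines with the block, the U937 response rests on that number alone. Calls over all genes went from 266 to between 1 and 872 in MOLM-13, from 2062 to between 0 and 2369 in U937 and from 3251 to between 1970 and 3413 in HL-60 with a library left out. They were 39 and 824 at an adjusted p under 0.05, and 55 and 475 without the trend, in MOLM-13 and U937, 738 and 2495 with the replicate blocks of MOLM-13, and 3994 for U937 in one fit.

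Of 29 receptor fold changes, 14 kept direction and side of the threshold under every alternative. Signs turned only where nothing was called. With the replicate block by the labels' numbers in MOLM-13, KIT became 0.49 and IL10RA 0.15. This block leaves pLKO replicate 3 without a partner, and the fit without that library gave the same 0.49 and 0.15. With the length correction, IL6R became -0.05 and IFNGR1 0.02 in U937, and IFNGR1 -0.07 in HL-60. With a library left out, the log2 fold change ran in MOLM-13 from -0.75 to 0.49 for KIT, -0.32 to 0.58 for CSF1R, -0.49 to 0.27 for IL10RA and -0.06 to 0.22 for IFNGR1. In U937 it ran from -0.30 to 0.68 for CSF2RA, -0.35 to 0.42 for IL6R and -0.38 to 0.23 for IFNGR1, and in HL-60 from -0.02 to 0.47 for FLT3 and -0.03 to 0.16 for IFNGR1. For differences between lines, CSF3R between MOLM-13 and U937 became -0.04 with the block. CSF2RB between MOLM-13 and HL-60 became 0.00 with a pseudocount of 10, 0.01 with median-of-ratios scaling and 0.13 with the block. KIT between U937 and HL-60 became -0.36 with a pseudocount of 10, -0.02 with the length correction and -0.51 with the block. With a library left out they ran from -0.00 to 0.55 for CSF3R, -0.24 to 0.13 for CSF2RB and -0.66 to 0.93 for KIT. The causes of these shifts were not tested.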
